A study of Homo sapiens with 74 samples.

Results

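The ligands and receptors of the tumour necrosis factor (TNF) superfamily were followed in messenger RNA of K562, an established human line from a chronic myeloid leukaemia with erythroid traits, and HEL, an established human erythroleukaemia line, after loss or depletion of members of the DOT1L complex. Members were chosen by symbol: every gene whose name begins with TNFSF or TNFRSF and a number, together with TNF, LTA, LTB, LTBR, FAS, FASLG, CD27, CD40 and NGFR. The rule took 43 of the 28131 genes in the count tables: 15 ligands, 7 receptors with a death domain, 4 decoy receptors, 15 other receptors and 2 readthrough or antisense entries. It used no measured value. The groups were wild-type K562 (control), K562 labelled DOT1L-/- (DOT1L KO), K562 labelled ENL-/- (ENL KO), control HEL, and HEL with knockdown of DOT1L (DOT1L KD). DOT1L methylates lysine 79 of histone H3, and ENL, whose gene symbol is MLLT1, is a reader of acetylated histones that binds the DOT1L complex. Neither the way the cells were depleted nor whether a knockout line is a single clone is given in the sources used here, and no drug or cytokine treatment is named for these libraries.

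TNF superfamily ligands are mostly membrane proteins that act as trimers on receptors of neighbouring cells, and sheddases can release them. Receptors with a death domain, such as TNFR1 (TNFRSF1A), FAS and the TRAIL receptors DR4 (TNFRSF10A) and DR5 (TNFRSF10B), can recruit caspase-8 and start apoptosis or, through TRADD and RIPK1, activate the transcription factor NF-kB. Receptors without one, such as TNFR2 (TNFRSF1B), CD30 (TNFRSF8) and CD40, bind TRAF adaptors, and decoy receptors take up ligand without a working death domain. In blood the family is best known for control of survival and activation of lymphocytes and myeloid cells.

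Promoter sequences are shown for 4 members that stand for the patterns described below: TNFRSF8 and its neighbour TNFRSF1B, which parted in the ENL KO, the TRAIL gene TNFSF10, which moved in opposite directions in the knockouts, and TNFRSF1A, which fell in both. They come from RefSeq, build GRCh38.p14, run 5′ to 3′ along the gene from 250 bases before to 50 bases after its RefSeq start, and are in lower case. Capitals mark matches, on either strand, to 6 motifs. These were the core promoter element TATAAA, the GC box with the letters GGGCGG, the core of erythroid GATA factor sites written AGATAA, the core of ETS factor sites written CCGGAA, the AP-1 site written TGANTCA, and the NF-kB consensus.
TNFRSF8: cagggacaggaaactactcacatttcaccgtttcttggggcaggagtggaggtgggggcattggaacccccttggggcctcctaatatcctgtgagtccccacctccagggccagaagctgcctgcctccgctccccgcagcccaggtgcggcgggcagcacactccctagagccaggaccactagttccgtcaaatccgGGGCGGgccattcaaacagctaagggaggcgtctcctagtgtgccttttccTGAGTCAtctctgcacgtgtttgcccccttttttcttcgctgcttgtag
TNFRSF1B: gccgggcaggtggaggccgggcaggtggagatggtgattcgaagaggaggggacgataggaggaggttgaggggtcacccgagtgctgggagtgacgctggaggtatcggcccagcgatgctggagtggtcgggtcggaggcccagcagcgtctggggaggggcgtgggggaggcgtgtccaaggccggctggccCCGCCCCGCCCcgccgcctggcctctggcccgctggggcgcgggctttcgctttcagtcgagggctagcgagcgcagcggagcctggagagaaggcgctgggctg
TNFSF10: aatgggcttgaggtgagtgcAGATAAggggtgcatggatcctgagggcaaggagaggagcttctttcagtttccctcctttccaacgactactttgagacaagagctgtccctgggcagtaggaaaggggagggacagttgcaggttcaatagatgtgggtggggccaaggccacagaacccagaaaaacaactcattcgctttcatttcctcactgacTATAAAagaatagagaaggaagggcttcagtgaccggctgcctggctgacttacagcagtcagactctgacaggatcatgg
TNFRSF1A: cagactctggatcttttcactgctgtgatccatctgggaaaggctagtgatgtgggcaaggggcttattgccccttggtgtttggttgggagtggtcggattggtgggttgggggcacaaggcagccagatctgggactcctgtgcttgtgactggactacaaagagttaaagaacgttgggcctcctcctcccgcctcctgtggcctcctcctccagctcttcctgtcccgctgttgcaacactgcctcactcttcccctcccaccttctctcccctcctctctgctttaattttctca
The TNFRSF8 window lies at chr1:12063053-12063352 on the plus strand and holds 1 GC box and 1 AP-1 match. The TNFRSF1B window lies at chr1:12166741-12167040 on the plus strand and holds 2 GC boxes, both on the opposite strand, overlapping no other motif and printed as one run of capitals. The TNFSF10 window, chr3:172523381-172523680 on the minus strand, holds an AGATAA and a TATAAA match, and the TNFRSF1A window, chr12:6342027-6342326 on the minus strand, holds no match to the 6 motifs. Of all 34943 promoters of this length, 44.9% held GGGCGG, 17.2% CCGGAA, 11.6% TATAAA, 11.3% the NF-kB consensus, 10.4% AGATAA and 7.72% TGANTCA. TNFRSF1B had the most CpG dinucleotides of the 4, 27 against 11 in TNFRSF8, 4 in TNFRSF1A and 3 in TNFSF10, and the median promoter held 14. A match describes these letters only.

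The K562 libraries held 15404944 to 29236703 fragments assigned to genes and the HEL libraries 12151495 to 12811688 reads. K562 controls 2 and 3 were identical gene for gene and entered once, so K562 had 2 control libraries and 3 of each knockout, and HEL had 2 control and 2 knockdown libraries. Nothing in the labels says that replicates came from separate cultures, so p-values measure the spread between these libraries. The ENL KO labels name no sequencing lane while those of the other K562 libraries do, so a batch and the ENL knockout cannot be told apart. The targeted messages were lower in their own libraries by edgeR (log2 fold change -0.53 for DOT1L in its KO, -1.64 in its KD, and -0.48 for MLLT1 in the ENL KO). Every library expressed all 8 erythroleukaemia markers, but their level was not constant. They summed to 6086 to 6585 CPM (library-scaled counts, with TMM factors) in the K562 control, 9106 to 9589 in the DOT1L KO and 6929 to 7164 in the ENL KO. In HEL they summed to 5315 to 5416 CPM in the control and 7478 to 8153 after knockdown. By edgeR 7 were higher and 1 lower in the DOT1L KO, 5 higher and 1 lower in the ENL KO, and 7 higher in depleted HEL. Markers of other cell types moved as well, and their part in the results below was not tested. The sums that follow can rest on single genes. By edgeR, 1 of the 2 monocyte markers tested in K562 was higher in the DOT1L KO and the other did not pass. Of the 3 endothelial markers tested in HEL, 1 was higher and 1 lower after knockdown. The 4 monocyte markers summed to 33.3 to 36.0 CPM in the K562 control, 292 to 324 in the DOT1L KO and 19.5 to 21.1 in the ENL KO, with CSF1R and FCGR3A at or under 3 counts in the control libraries. The 5 T cell markers summed to 78.5 to 78.8, 19.8 to 24.8 and 116 to 127 CPM in the same order, with CD2 and CD8A at or under 3 counts throughout K562, and the 5 fibroblast markers to 12.1 to 13.7, 129 to 136 and 13.8 to 15.3 CPM, with LUM and PDGFRA at or under 3 counts. Of the B cell markers, MS4A1 was at or under 3 counts in every group of both lines, and the 4 together reached at most 8.23 CPM. The 5 megakaryocytic markers summed to 3.86 to 5.86, 24.7 to 25.4 and 10.8 to 14.5 CPM in the K562 groups, where all but ITGA2B were at or under 3 counts, and to 1507 to 1560 in control and 1391 to 1426 in depleted HEL. The 4 endothelial markers summed to 22.0 to 28.2 CPM in K562, with CDH5 and KDR at or under 3 counts, and to 330 to 346 in control and 558 to 571 in depleted HEL.

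Most of the family was scarcely detected in these lines. Of the 43 members, 14 reached a mean of 1 CPM in the K562 control, 16 in the DOT1L KO, 9 in the ENL KO, 17 in control HEL and 16 in depleted HEL. The filter on low counts kept 19 members in K562 and 18 in HEL, 15 of them in both, and 21 were tested in neither. Of these, 7 had no count in any library: TNFSF18, TNFSF8, TNFSF11, TNFRSF13B, TNF, LTA and the readthrough entry TNFSF12-TNFSF13. A count of 0 allows up to 3 counts, worth 0.101 to 0.244 CPM depending on the library, and this covers counting error only. For TNF, LTA and LTB, the genes of tumour necrosis factor and the lymphotoxins in the MHC region of chromosome 6, counts of 0 or 1 say little. The tables list 6 or 7 further copies of each on alternate contigs, so reads that map to several copies may have been left out; how such reads were counted is not given in the sources used here. TNFRSF14 and TNFRSF14-AS1 have 1 such copy each. The ligands TNFSF15, TNFSF4, TNFSF13 and FASLG, the receptors TNFRSF18, TNFRSF4, CD27 and TNFRSF17 and the decoys TNFRSF6B, TNFRSF10C and TNFRSF11B stayed at 10 counts or fewer in every library.

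Levels per length were compared as CPM per kilobase of exon. In the K562 control the lymphotoxin beta receptor LTBR was at 40.5 ± 1.31 (SD, n = 2), ahead of TNFRSF1B at 35.0 ± 0.493 and TNFRSF1A at 34.9 ± 1.41, and TNFRSF1B and TNFRSF1A did not differ beyond their spread. The next members were TNFRSF12A (23.3 ± 6.92), the ligand TNFSF9 (23.3 ± 1.56) and TNFRSF10A (20.6 ± 0.851), whose order lies within the spread of TNFRSF12A. They were followed by TNFRSF10B (11.3 ± 0.184), TNFRSF8 (8.58 ± 0.103) and TNFRSF21 (5.08 ± 0.467), and every other member was under 2. In control HEL, LTBR (29.2 ± 0.364) and TNFRSF1A (25.1 ± 0.199) led again. The decoy TNFRSF10D (10.2 ± 0.512) and TNFRSF10A (9.46 ± 0.408) came next and differed by less than the sum of their SDs, followed by TNFRSF25 (6.62 ± 0.205) and CD40 (5.88 ± 0.402), while TNFRSF1B was at 0.867 ± 0.249.

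**Figure D1:**
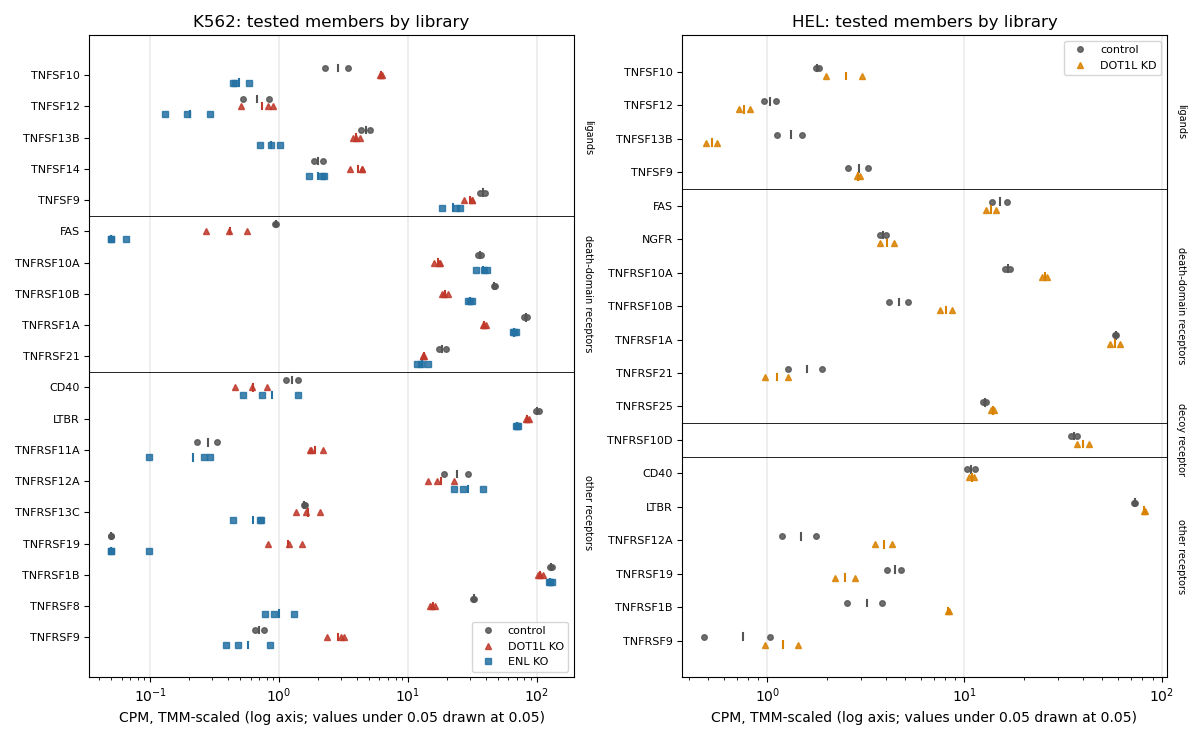
Levels of the tested members in each library of K562 (left) and HEL (right), in TMM-scaled CPM on a log axis, with 1 point per library, a tick at each group mean and members grouped by role. LTBR lies at 68.8 to 103 CPM in every library of both panels, whereas TNFRSF8, near 32 CPM in the K562 control, lies near 1 CPM in the ENL KO.

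In the K562 DOT1L KO, receptor messages mostly fell and a few scarce ligand and receptor messages rose. Of the 19 members tested, 15 passed an adjusted p of 0.05 in edgeR's quasi-likelihood test, 5 higher and 10 lower, against 51.1% of the 14301 genes tested, 26.9% higher and 24.2% lower. All 5 tested death-domain receptors were among the lower ones, including FAS, which the filter on low counts admitted only through the control libraries. The median log2 fold change of the members was -0.27, beside 0.01 over all genes tested. These are bulk libraries, in which fewer cells that carry a message and less of it per cell cannot be told apart. FAS passed the filter on low counts only through the control libraries, and TNFRSF19 and TNFRSF11A only through the DOT1L KO, so these 3 had to differ to be tested; of the other 16, 12 passed, 3 higher and 9 lower.

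In the ENL KO no member rose past the threshold and 11 of 19 fell, against 41.0% of all genes tested, of which 18.8% were higher and 22.2% lower. Without FAS, TNFRSF19 and TNFRSF11A, which passed the filter only through 1 group each, 10 of 16 fell. The median over the members was -0.52, beside 0.00 over all genes. TNFRSF8, FAS, TNFSF10 and TNFSF13B fell most, and TNFRSF1B and TNFRSF10A, 2 of the more abundant receptors, did not pass. Both knockouts were compared with the same control libraries, so their fold changes are not independent. The comparison of the knockouts with each other uses no control: 17 of 19 members differed, 12 higher and 5 lower in the DOT1L KO, against 60.2% of all genes tested, 31.8% higher and 28.3% lower. Without the same 3 members 14 of 16 differed, 9 higher and 5 lower. A log2 fold change of at least 1 in either direction was then required as well. By this rule 10 members were called in the DOT1L KO, 6 in the ENL KO and 11 between the knockouts. Of all genes, 15.8%, 11.0% and 19.2% were called in the same order. The 10 and the 11 include FAS, TNFRSF19 and TNFRSF11A and the 6 include FAS, members that the filter admitted through 1 group only.

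**Figure D2:**
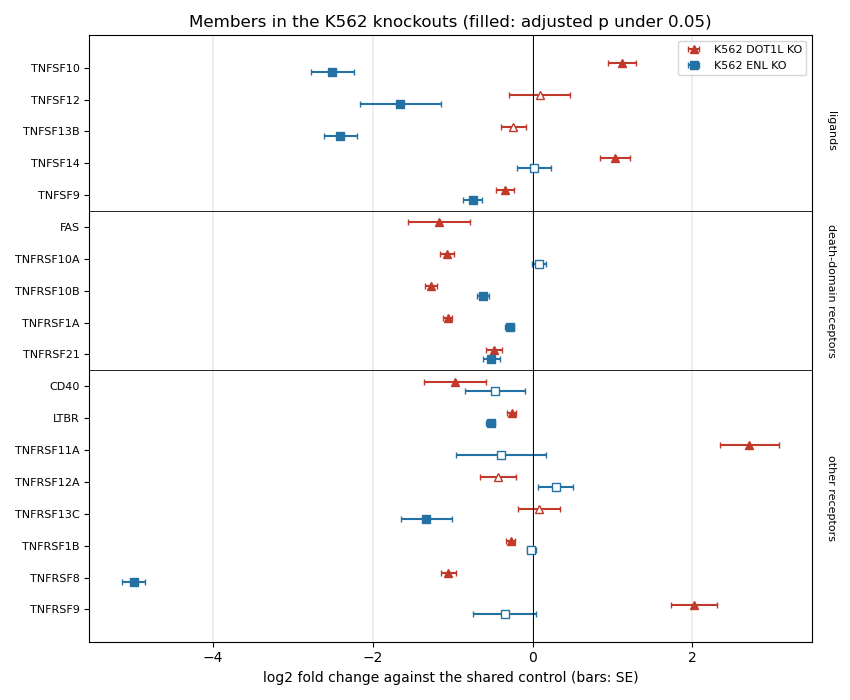
Log2 fold changes of members in the K562 DOT1L KO and ENL KO against their shared control, with bars of 1 SE; filled symbols passed an adjusted p of 0.05. TNFSF10 lies at 1.12 in the DOT1L KO and at -2.51 in the ENL KO, and TNFRSF8 lies at -1.06 and near -5. TNFRSF19, and FAS in the ENL KO, are not drawn because their counts were at or near 0 in a group.

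Among the death-domain receptors, TNFRSF1A (chromosome 12, 6328757 to 6342117, minus strand, coordinates on hg38 as the tables list them) encodes TNFR1, the main receptor for soluble TNF. It was counted at 84.2 and 79.5 CPM in the K562 control libraries, 40.3, 39.0 and 38.0 after DOT1L loss and 66.6, 68.7 and 65.5 after ENL loss. The 3 groups did not overlap, and the DOT1L KO was lowest. The log2 fold change was -1.07 (edgeR adjusted p 9.42e-09, SE 0.0617) after DOT1L loss and -0.29 (edgeR adjusted p 0.00193, SE 0.0614) after ENL loss. In HEL the same message was at 58.4 and 59.1 CPM in the control and 55.0 and 61.7 after knockdown, where the groups overlapped (log2 fold change -0.01, edgeR adjusted p 0.899).

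TNFRSF21 (chromosome 6, 47231527 to 47309947, minus strand) encodes death receptor 6. Its level was 19.7 and 17.3 CPM in the K562 control, 13.1, 13.2 and 13.3 after DOT1L loss and 14.3, 12.6 and 11.7 after ENL loss. Both knockouts lay below both controls and overlapped each other, with log2 fold changes of -0.49 (edgeR adjusted p 0.00136, SE 0.102) and -0.52 (edgeR adjusted p 0.00137, SE 0.105). In HEL it was scarce, at 1.28 and 1.91 CPM in the control and 1.27 and 0.976 after knockdown, a difference that did not pass (-0.50, edgeR adjusted p 0.249).

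FAS (chromosome 10, 88990559 to 89017061, plus strand), the receptor for FAS ligand, was near its limit of detection in K562, with 20 and 20 counts in the control libraries, 6, 12 and 12 after DOT1L loss and 0, 0 and 1 after ENL loss. All knockout libraries lay below both controls, and FAS passed the filter on low counts only through the controls. In the DOT1L KO the log2 fold change was -1.17 (edgeR adjusted p 0.0235, SE 0.394), and the call rested on single libraries. Without DOT1L KO 1 the edgeR adjusted p was 0.0735, without DOT1L KO 2 0.0573, and without control 1 or control 2 0.0970 and 0.103; DESeq2 gave an adjusted p of 0.124. In the ENL KO the single count gave a ratio to the control of 0.0188 (95% exact counting interval 0.000465 to 0.111, edgeR adjusted p 7.28e-05). The interval pools the libraries of a group and covers counting error only. FAS is one of the members whose span from start to end overlaps genes of the opposite strand (ACTA2 and FAS-AS1). Whether exons of FAS overlap theirs was not examined, and use of strand in counting is not given in the sources used here. HEL carried far more of it, 13.7 and 16.4 CPM in the control and 14.4 and 12.8 after knockdown, with overlapping groups (-0.15, edgeR adjusted p 0.302).

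The other death-domain receptors, TNFRSF25 (DR3) and NGFR (the low-affinity neurotrophin receptor), were untested in K562, where no library had more than 9 counts of TNFRSF25 or 4 of NGFR. TNFRSF25 stood at 12.4 and 12.9 CPM in control HEL and 13.7 and 14.2 after knockdown. The groups did not overlap, but the difference did not pass (0.14, edgeR adjusted p 0.344). NGFR stood at 3.99 and 3.73 CPM in control HEL and 3.74 and 4.39 after knockdown, with overlapping groups (0.07, edgeR adjusted p 0.798). TNFRSF25 overlaps PLEKHG5 on the same strand and NGFR overlaps LOC100288866 on the other, so reads could be assigned to either gene of a pair.

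The TRAIL system joins the ligand TNFSF10 to the death receptors TNFRSF10A and TNFRSF10B and the decoys TNFRSF10C and TNFRSF10D, and TNFRSF11B (osteoprotegerin) is a soluble decoy that binds it too. The 4 TNFRSF10 genes lie side by side on chromosome 8, with 33.6, 18.2 and 27.4 kb between neighbours in the order 10B, 10C, 10D and 10A. They are paralogues, so reads from stretches they share could be split between them or dropped. TNFRSF10B (chromosome 8, 23020136 to 23069187, minus strand) was counted at 47.3 and 46.2 CPM in the K562 control, 20.6, 19.2 and 18.3 after DOT1L loss and 31.4, 29.4 and 30.1 after ENL loss. The groups did not overlap: the DOT1L KO was lowest, with a log2 fold change of -1.27 (edgeR adjusted p 1.41e-08, SE 0.0765), and the ENL KO lay between, at -0.63 (edgeR adjusted p 1.94e-05, SE 0.0759). TNFRSF10B shares ground with RHOBTB2 and LOC286059 on the opposite strand.

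TNFRSF10A (chromosome 8, 23191457 to 23225167, minus strand) was at 37.1 and 35.0 CPM in the K562 control, 17.8, 17.5 and 16.1 after DOT1L loss and 40.8, 39.1 and 33.9 after ENL loss. Here the ENL KO overlapped the control (0.08, edgeR adjusted p 0.523), and the DOT1L KO lay below both groups, with a log2 fold change of -1.07 (edgeR adjusted p 4.39e-07, SE 0.0917) against the control and -1.15 (edgeR adjusted p 5.15e-08, SE 0.0840) against the ENL KO. In HEL both death receptors moved the other way. TNFRSF10A went from 16.1 and 17.1 to 26.2 and 24.9 CPM, a log2 fold change of 0.62 (edgeR adjusted p 2.41e-07, SE 0.0966). TNFRSF10B went from 5.19 and 4.13 to 7.48 and 8.62 CPM, a log2 fold change of 0.79 (edgeR adjusted p 0.000173, SE 0.178). The HEL groups did not overlap for either gene, and HEL stayed well below K562 in TNFRSF10B.

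The decoy TNFRSF10D, which has a shortened death domain, separated the lines: no K562 library had more than 1 count, and HEL held 34.7 and 37.2 CPM in the control and 37.1 and 42.8 after knockdown. The HEL groups overlapped and the difference of 0.15 did not pass (edgeR adjusted p 0.0855); it passed with upper-quartile scaling (0.22, edgeR adjusted p 0.0100) and without DOT1L KD 1 (0.25, edgeR adjusted p 0.0134). TNFRSF10C had at most 5 counts in a library and TNFRSF11B at most 1.

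TRAIL itself, TNFSF10 (chromosome 3, 172505508 to 172523507, minus strand), moved in opposite directions in the knockouts. It was at 2.28 and 3.40 CPM in the K562 control, 6.04, 6.32 and 6.15 after DOT1L loss and 0.580, 0.438 and 0.456 after ENL loss, where 12, 9 and 7 fragments were counted. The 3 groups did not overlap. The log2 fold change was 1.12 (edgeR adjusted p 0.000135, SE 0.176) in the DOT1L KO, -2.51 (edgeR adjusted p 6.36e-06, SE 0.270) in the ENL KO, and 3.63 (edgeR adjusted p 7.36e-09, SE 0.220) between them. In HEL it was at 1.76 and 1.83 CPM in the control and 1.99 and 3.01 after knockdown, where the groups did not overlap but the difference did not pass (0.47, edgeR adjusted p 0.171). The DOT1L KO thus held more message of the ligand and less of both of its death receptors than the control.

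**Figure D3:**
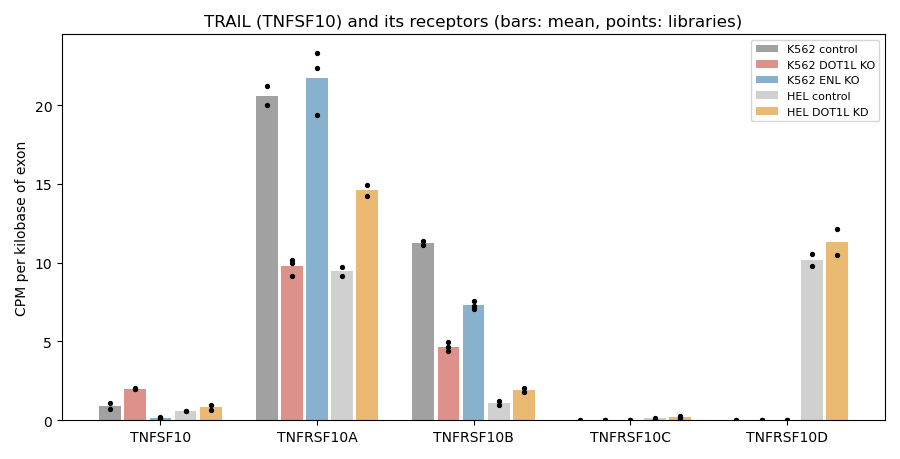
TRAIL (TNFSF10) and its receptors in CPM per kilobase of exon, with bars for group means and points for libraries. TNFRSF10A falls from 20.6 ± 0.851 (SD, n = 2) in the K562 control to 9.78 ± 0.534 (SD, n = 3) in the DOT1L KO and rises from 9.46 ± 0.408 to 14.6 ± 0.515 (SD, n = 2 each) in HEL, and TNFRSF10D has a visible bar in HEL alone.

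Of the receptors without a death domain, TNFRSF8 (chromosome 1, 12063303 to 12144207, plus strand), which encodes CD30, had the largest decrease in the ENL KO. It was at 32.0 and 32.5 CPM in the control, 16.2, 15.4 and 14.9 after DOT1L loss and 1.30, 0.779 and 0.912 after ENL loss, where 27, 16 and 14 fragments remained. No groups overlapped. The log2 fold change was -1.06 (edgeR adjusted p 8.11e-07, SE 0.0960) after DOT1L loss and -5.00 (edgeR adjusted p 2.60e-11, SE 0.142) after ENL loss, and the knockouts differed from each other by 3.94 (edgeR adjusted p 4.93e-11). HEL had at most 2 counts in a library.

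TNFRSF1B, which encodes TNFR2, begins 22.8 kb downstream of the end of TNFRSF8 on the same strand (chromosome 1, 12167003 to 12209220, plus strand). It was at 127 and 130.0 CPM in the K562 control, 111, 106 and 103 after DOT1L loss and 130.2, 126 and 124 after ENL loss. The ENL KO overlapped the control (-0.02, edgeR adjusted p 0.807), unlike its neighbour, and the DOT1L KO lay lower by a log2 fold change of -0.27 (edgeR adjusted p 0.00112, SE 0.0562). In HEL, where the level was far lower, it rose from 3.83 and 2.54 CPM (48 and 32 counts) to 8.35 and 8.21 CPM (105 and 101 counts), a log2 fold change of 1.38 (edgeR adjusted p 3.08e-08, SE 0.194) with no overlap.

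LTBR (chromosome 12, 6375368 to 6391571, plus strand) binds lymphotoxin heterotrimers and the ligand TNFSF14, and it lies 33.2 kb from TNFRSF1A. It was at 103 and 98.7 CPM in the K562 control, 87.1, 82.4 and 83.2 after DOT1L loss and 71.9, 69.8 and 68.8 after ENL loss. The groups did not overlap and the changes were small, -0.26 (edgeR adjusted p 0.00175, SE 0.0570) and -0.52 (edgeR adjusted p 7.97e-06, SE 0.0576). The order of the knockouts was the reverse of that for TNFRSF1A, since here the ENL KO was lower (DOT1L KO against ENL KO 0.26, edgeR adjusted p 0.000666). In HEL, LTBR went from 72.3 and 73.6 to 82.0 and 81.2 CPM, a log2 fold change of 0.16 (edgeR adjusted p 0.00601, SE 0.0509) that DESeq2 did not call (adjusted p 0.124). LTBR overlaps SCNN1A on the opposite strand.

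The scarce receptors that rose in the DOT1L KO were TNFRSF9, TNFRSF11A and TNFRSF19. TNFRSF9, which encodes the T cell costimulator 4-1BB, went from 0.651 and 0.757 CPM in the control to 2.36, 3.18 and 3.03 in the DOT1L KO and stood at 0.483, 0.389 and 0.847 in the ENL KO. The DOT1L KO lay above all other K562 libraries, with a log2 fold change of 2.02 (edgeR adjusted p 6.14e-05, SE 0.290), and the ENL KO overlapped the control (-0.35, edgeR adjusted p 0.510). TNFRSF11A, which encodes RANK, the receptor of osteoclast formation, had 5 and 7 counts in the control, 38, 52 and 46 after DOT1L loss and 6, 2 and 4 after ENL loss, a log2 fold change of 2.71 (edgeR adjusted p 3.83e-05, SE 0.370) in the DOT1L KO. TNFRSF19, which encodes the orphan receptor TROY, had no count in either control, 18, 35 and 32 after DOT1L loss and 0, 2 and 0 after ENL loss. Set against a floor of 3 counts per control library, it was at least 8.33-fold higher in the DOT1L KO (edgeR adjusted p 7.38e-05). TNFRSF11A and TNFRSF19 passed the filter on low counts only through the DOT1L KO, so they had to differ to be tested.

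In HEL, TNFRSF19 was present from the start and fell, from 60 and 51 counts to 35 and 27, that is from 4.42 ± 0.527 to 2.49 ± 0.415 CPM (SD, n = 2 each). The groups did not overlap and the log2 fold change was -0.82 (edgeR adjusted p 0.00268, SE 0.236). Without DOT1L KD 2 it no longer passed (-0.67, edgeR adjusted p 0.0527), nor did it with DESeq2 (adjusted p 0.0736). TNFRSF9 in HEL was at 0.479 and 1.03 CPM in the control and 1.43 and 0.976 after knockdown, with overlapping groups (edgeR adjusted p 0.190), and TNFRSF11A had 4 counts or fewer per library.

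TNFRSF12A encodes FN14, the receptor for the ligand TWEAK (TNFSF12). Its K562 libraries were at 29.1 and 19.0 CPM in the control, 22.6, 14.3 and 16.8 after DOT1L loss and 38.1, 26.7 and 22.7 after ENL loss. Both knockouts overlapped the control, and neither difference from the control passed (-0.44, edgeR adjusted p 0.124, and 0.29, edgeR adjusted p 0.335). The decrease in the DOT1L KO did pass with no filter on low counts (-0.46, edgeR adjusted p 0.00478), without DOT1L KO 1 (-0.64, edgeR adjusted p 0.0208) and without control 2 (-0.71, edgeR adjusted p 0.0397). In HEL the gene was scarcer and rose from 1.76 and 1.19 CPM (22 and 15 counts) to 4.29 and 3.50 CPM (54 and 43 counts), a log2 fold change of 1.40 (edgeR adjusted p 2.51e-05, SE 0.277) without overlap.

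CD40, the receptor of CD40 ligand on antigen-presenting cells, had 30 and 24 counts in the K562 control, 10, 24 and 13 after DOT1L loss and 29, 15 and 8 after ENL loss. In CPM the DOT1L KO lay below both controls, at 0.454, 0.811 and 0.615 against 1.40 and 1.14, and the log2 fold change of -0.97 (edgeR adjusted p 0.0479, SE 0.383) was just past the threshold. It was lost without DOT1L KO 1 (edgeR adjusted p 0.119), DOT1L KO 3 (0.0988), control 1 (0.230) or control 2 (0.0871), with upper-quartile scaling (0.0528) and with DESeq2 (adjusted p 0.0904). The ENL KO overlapped the control (-0.47, edgeR adjusted p 0.345). HEL held 10.3 and 11.3 CPM in the control and 11.2 and 10.6 after knockdown, with overlapping groups (edgeR adjusted p 0.960).

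TNFRSF13C, which encodes the BAFF receptor of B cells, was at 1.58 and 1.56 CPM in the K562 control, 2.09, 1.35 and 1.61 after DOT1L loss and 0.725, 0.438 and 0.716 after ENL loss. The DOT1L KO overlapped the control (edgeR adjusted p 0.818) and the ENL KO lay below it, by a log2 fold change of -1.33 (edgeR adjusted p 0.00444, SE 0.319) on 15, 9 and 11 fragments. HEL had 5 counts or fewer.

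Among the ligands, TNFSF9 (chromosome 19, 6531026 to 6535924, plus strand), the ligand of 4-1BB, was the most abundant in K562. It was at 36.2 and 39.8 CPM in the control, 31.2, 27.3 and 31.6 after DOT1L loss and 23.8, 25.1 and 18.4 after ENL loss. The groups did not overlap and stepped down in that order, with log2 fold changes of -0.34 (edgeR adjusted p 0.0207, SE 0.112) and -0.75 (edgeR adjusted p 0.000154, SE 0.115). The smaller change was lost without DOT1L KO 2 (edgeR adjusted p 0.0870) or without control 2 (0.156). In HEL it was at 2.56 and 3.25 CPM in the control and 2.94 and 2.85 after knockdown, with overlapping groups (edgeR adjusted p 0.985). In the DOT1L KO, then, the 4-1BB ligand fell while the message of its receptor TNFRSF9 rose.

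TNFSF14 (chromosome 19, 6661253 to 6670588, minus strand) encodes LIGHT, a ligand of LTBR, and lies 125 kb from TNFSF9. It rose from 1.86 and 2.18 CPM in the control to 4.36, 4.43 and 3.55 in the DOT1L KO and stood at 2.22, 2.14 and 1.69 in the ENL KO. The DOT1L KO lay above all other K562 libraries, with a log2 fold change of 1.03 (edgeR adjusted p 0.000513, SE 0.192), and the ENL KO overlapped the control (0.02, edgeR adjusted p 0.960). HEL had at most 1 count in a library.

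TNFSF13B (chromosome 13, 108269629 to 108308484, plus strand) encodes BAFF, the B cell survival factor. It was at 4.32 and 5.11 CPM in the K562 control, 3.73, 4.22 and 3.98 after DOT1L loss and 0.870, 1.02 and 0.716 after ENL loss. The ENL KO was lowest, by a log2 fold change of -2.41 (edgeR adjusted p 7.04e-07, SE 0.205), and the DOT1L KO, though below both controls, did not pass (-0.24, edgeR adjusted p 0.221). In HEL it went from 14 and 19 counts to 7 and 6, a log2 fold change of -1.31 (edgeR adjusted p 0.0112, SE 0.449). It had passed the filter there only through the control libraries, and the call was lost without DOT1L KD 2 (edgeR adjusted p 0.0801), without control 2 (0.170) and with DESeq2 (adjusted p 0.159). BAFF and its receptor TNFRSF13C were thus both lower in the ENL KO.

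TNFSF12, the TWEAK gene, overlaps the readthrough entry TNFSF12-TNFSF13, so its reads may be undercounted. It had 18 and 11 fragments in the K562 control, 18, 15 and 19 after DOT1L loss and 4, 6 and 2 after ENL loss. The ENL KO lay below the other libraries in CPM as in counts, with a log2 fold change of -1.66 (edgeR adjusted p 0.0177, SE 0.503) that was lost without control 1 (edgeR adjusted p 0.179). The DOT1L KO overlapped the control (edgeR adjusted p 0.872). In HEL it was at 0.959 and 1.11 CPM in the control and 0.716 and 0.813 after knockdown, a difference that did not pass (-0.43, edgeR adjusted p 0.408).

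Set directly against each other, the knockouts differed in all 5 tested ligands, each of which was higher in the DOT1L KO: TNFSF10 by 3.63, TNFSF13B by 2.17, TNFSF12 by 1.74, TNFSF14 by 1.01 and TNFSF9 by 0.41 on the log2 scale, with edgeR adjusted p-values of 7.36e-09 to 0.00429. The death-domain receptors TNFRSF10A (-1.15), TNFRSF1A (-0.78) and TNFRSF10B (-0.65) were lower in the DOT1L KO, and TNFRSF21 did not differ past the threshold (0.03, edgeR adjusted p 0.795). Of the other receptors, TNFRSF8 (3.94), TNFRSF11A (3.11), TNFRSF9 (2.37), TNFRSF13C (1.42) and LTBR (0.26) were higher in the DOT1L KO. TNFRSF12A (-0.72) and TNFRSF1B (-0.25) were lower there. For FAS and TNFRSF19, with 1 and 2 fragments in the whole ENL KO, the ratios were 23.3 (95% exact counting interval 3.88 to 952) and 33.1 (8.88 to 278). These intervals pool the libraries of a group and cover counting error only. FAS, TNFRSF19 and TNFRSF11A each passed the filter on low counts through 1 group only.

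In HEL after DOT1L knockdown, 5 receptors of the family were higher and a receptor and a ligand were lower. Of 18 members tested, 7 passed, 5 higher and 2 lower. That is 38.9% of the members, against 55.0% of the 12635 genes tested, 27.0% higher and 28.0% lower. The members were thus called less often than all genes, and called higher about as often. With a log2 fold change of at least 1 in either direction 3 passed, TNFSF13B among them, beside 5.84% of all genes. The 5 higher ones were receptors (TNFRSF1B, TNFRSF12A, TNFRSF10B, TNFRSF10A and LTBR), and TNFRSF19 and the ligand TNFSF13B were lower. TNFRSF9 passed the filter on low counts only through the knockdown libraries and TNFSF13B and TNFSF12 only through the controls; of the other 15, 6 passed. With DESeq2 in place of edgeR 4 of the 18 passed, all higher. The median log2 fold change of the members was 0.10, beside 0.01 over all genes.

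The responses of the lines were then compared in a joint fit of 9 libraries, as the change in HEL minus the change in K562. HEL was knocked down and counted in reads, K562 was knocked out and counted in fragments, and these cannot be told apart from the line. Of 24 members tested, 11 differed, 10 with the response higher in HEL and 1 with the response lower, against 38.9% of the 15367 genes tested, 19.8% higher and 19.1% lower. The death-domain receptors TNFRSF10B, TNFRSF10A, TNFRSF1A, FAS and TNFRSF25 were 5 of the 10. Of these, TNFRSF25 was tested only through HEL, and the call for FAS was lost when single libraries were left out. The 24 include members tested only through 1 line, which are named below with the control lines. The difference was 2.08 (edgeR adjusted p 1.12e-08, SE 0.185) for TNFRSF10B, 1.72 (edgeR adjusted p 1.11e-09, SE 0.131) for TNFRSF10A and 1.07 (edgeR adjusted p 1.45e-08, SE 0.0973) for TNFRSF1A. The TRAIL receptors fell in K562 and rose in HEL, whereas TNFRSF1A fell in K562 and did not pass in HEL.

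TNFRSF1B (1.67, edgeR adjusted p 2.26e-07), TNFRSF12A (1.86, edgeR adjusted p 0.00293) and LTBR (0.44, edgeR adjusted p 0.000208) also had the higher response in HEL. For FAS (1.04) and CD40 (0.99) the difference was lost when single libraries were left out. FAS lost it without any 1 of 6 libraries, namely DOT1L KD 1, HEL control 1, DOT1L KO 1, DOT1L KO 2, K562 control 1 and K562 control 2 (edgeR adjusted p 0.0721, 0.0741, 0.0802, 0.0747, 0.0722 and 0.0810). CD40 lost it without DOT1L KD 1, HEL control 1, DOT1L KO 1 or K562 control 1 (edgeR adjusted p 0.0515, 0.0537, 0.0541 and 0.108). TNFRSF25 and TNFRSF8 also had the higher response in HEL, but on 0 to 2 counts per library in a group. TNFRSF25 passed the filter on low counts only through HEL and TNFRSF8 only through K562. TNFRSF19 alone had the lower response in HEL: it fell there and was counted in K562 only after knockout of DOT1L or, in 1 library, of ENL. The difference in response did not pass for TNFSF10 (-0.63, edgeR adjusted p 0.184), TNFSF9 (0.36, edgeR adjusted p 0.292) or TNFSF13B (-1.06, edgeR adjusted p 0.0734), which does not show that they respond alike. TNFRSF9 (-1.33, edgeR adjusted p 0.0671) passed without HEL control 1 (0.0325) or DOT1L KO 1 (0.0413).

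**Figure D4:**
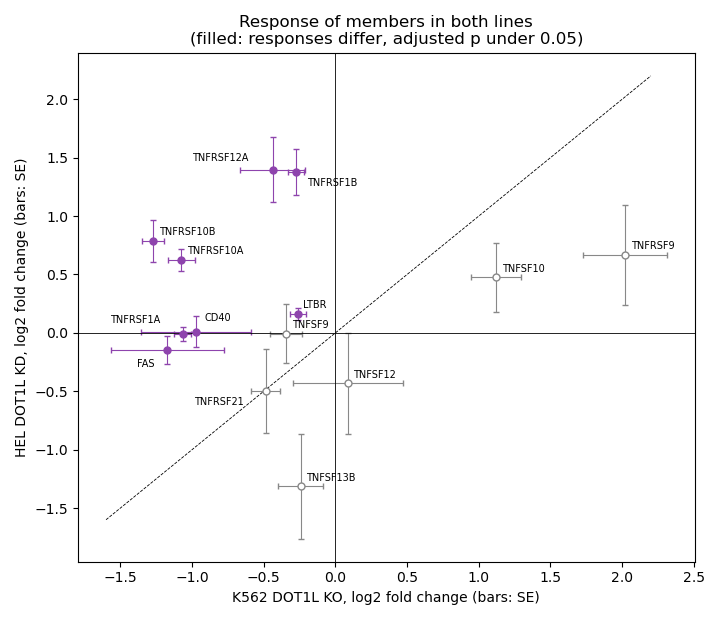
Log2 fold change of each member tested in both lines after knockout of DOT1L in K562 (x axis) and after its knockdown in HEL (y axis), with bars of 1 SE; filled points differed between the lines in the joint fit. TNFRSF10A (-1.07 and 0.62) and TNFRSF10B (-1.27 and 0.79) lie at the upper left. TNFRSF19 is not drawn because it had no count in the K562 control.

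Before depletion most of the tested members differed in level between the lines, as most genes did. In the joint fit 21 of 24 members differed between control HEL and control K562, 8 higher and 13 lower in HEL, close to the 85.6% of all genes that did, 41.3% higher and 44.2% lower. TNFRSF10D, TNFRSF25, NGFR, TNFSF4 and TNFSF13 were under the cutoff of the filter on low counts in every K562 library. TNFRSF8, TNFSF14, TNFRSF13C and TNFRSF11A were under it in every HEL library. These were tested only through the other line, so their difference in level was partly set by the filter. FAS (log2 fold change 4.07), CD40 (3.16), TNFRSF25 (5.31) and NGFR (5.33) were higher in HEL. The size for NGFR rested on 0 and 4 fragments in the K562 controls: it was 4.36 without control 1, and without control 2 the remaining control had none. TNFRSF10D differed by a ratio of 1609 on 1 fragment in K562 (95% exact counting interval 288 to 63620, for counting error only). TNFRSF19 was at least 33.0-fold higher in HEL against the floor. TNFRSF1B (-5.26), TNFRSF12A (-3.96), TNFSF9 (-3.64), TNFRSF21 (-3.46) and TNFRSF10B (-3.26) were lower in HEL, and TNFRSF8 was at least 129-fold lower. TNFRSF1A (-0.41) and LTBR (-0.40) differed least among the members that passed. The other members past the threshold were TNFRSF10A, TNFSF13B, TNFSF14, TNFRSF13C and TNFSF10, lower in HEL, and TNFSF4 and TNFSF13, higher on 8 counts or fewer. TNFSF10 (-0.59, edgeR adjusted p 0.0490) was no longer past it without HEL control 1 (0.145), HEL control 2 (0.121) or K562 control 2 (0.393), nor with DESeq2 (adjusted p 0.122) or DESeq2's size factors in edgeR (0.0605). TNFSF4 was lost with DESeq2 (adjusted p 0.0817) and without HEL control 2, K562 control 1 or K562 control 2 (edgeR adjusted p 0.205, 0.113 and 0.0580), and TNFSF13 without HEL control 1, HEL control 2 or K562 control 1 (0.0557, 0.0549 and 0.0848).

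Genes that act with the family were read from lists of the pathway. Of the 9 NF-kB subunits and inhibitors, 5 were lower in the DOT1L KO (median log2 fold change -0.33) and 7 in the ENL KO (median -0.52), and none was higher in either, beside 24.2% and 22.2% of all genes lower and 51.1% and 41.0% changed in either direction. The DOT1L KO count, 55.6% of the list, is thus near the share of all genes. NFKB2, the precursor of the p52 subunit of the non-canonical pathway that LTBR, CD40 and the BAFF receptor use, was at 37.5 and 34.0 CPM in the control, 21.2, 17.0 and 15.6 after DOT1L loss and 18.8, 19.0 and 16.3 after ENL loss. Every knockout library lay below both controls (-1.00 and -0.98, edgeR adjusted p 8.41e-06 and 1.73e-05). NFKB1 also fell in both (-0.59 and -0.57), as did BCL3 (-0.44 and -1.11); REL fell by 0.54 in the DOT1L KO and the inhibitor gene NFKBIA by 0.52 in the ENL KO. In HEL 4 of 9 changed, 44.4% beside 55.0% of all genes, with a median of -0.09, NFKBIE (0.64) and RELA (0.21) higher and NFKBIA (-0.52) and NFKB1 (-0.40) lower.

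Of 32 well-known NF-kB target genes, 16 of 23 tested changed in the DOT1L KO, 6 higher and 10 lower (median log2 fold change -0.33), and 16 of 23 in the ENL KO, 1 higher and 15 lower (median -0.72), in each case 69.6% beside 51.1% and 41.0% of all genes. CXCL8, the neutrophil chemokine interleukin-8, was at 18.1 and 18.8 CPM in the control, 1.04, 1.49 and 1.42 after DOT1L loss and 2.46, 2.19 and 1.24 after ENL loss. Both knockouts lay far below the control (-3.79 and -3.19, edgeR adjusted p 1.59e-09 and 1.14e-08). The urokinase gene PLAU also fell in both (-1.12 and -2.32), the adhesion gene ICAM1 fell in the DOT1L KO (-1.28) and the chemokine CXCL3 in the ENL KO (-1.57). CCL2 (1.87), IRF1 (1.36) and TNFAIP2 (0.78) rose in the DOT1L KO and CD83 (0.74) in the ENL KO. In HEL 14 of 21 changed, 66.7% beside 55.0% of all genes, 5 higher and 9 lower (median -0.22): TNFAIP3, which encodes the NF-kB inhibitor A20, fell by 1.24, IL1B by 0.81 and TNFAIP2 by 0.67, and CD83 (0.46), TNIP1 (0.42), TRAF1 (0.41) and ICAM1 (0.25) rose. TNFAIP2 and ICAM1 thus changed in opposite directions in the DOT1L-depleted lines, each past the threshold in both. NFKBIA, NFKB2, RELB and REL stand on this list and on that of the subunits, and BIRC3 and TRAF1 on this list and on the next.

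The receptor-proximal signalling list held 32 adaptors, kinases, caspases and ubiquitin enzymes. In the DOT1L KO 13 of 31 tested changed, 3 higher and 10 lower (median log2 fold change 0.00). That is 41.9% of the list, below the 51.1% of all genes. TRAF3 (-0.84), the caspase-8 inhibitor gene CFLAR (-0.66), MAP3K5 (-0.58) and TRAF2 (-0.55) were the largest decreases, and BIRC2 (0.40) and TBK1 (0.26) rose. In the ENL KO 16 of 31 changed, 51.6% beside 41.0% of all genes, 11 higher and 5 lower (median 0.14). MLKL, the pore-forming effector of necroptosis, was at 6.65 and 7.76 CPM in the control and 0.386, 0.730 and 0.847 in the ENL KO. TRAF5, an adaptor of several receptors of the family, was at 11.9 and 12.6 CPM in the control and 1.84, 1.90 and 1.30 in the ENL KO. For both genes the ENL KO lay below the control without overlap, with log2 fold changes of -3.49 (edgeR adjusted p 4.06e-08, SE 0.221) and -2.84 (edgeR adjusted p 5.89e-09, SE 0.149). OTULIN (-0.50) and TRAF3 (-0.47) also fell, and MAP3K5 (0.74), TRADD (0.52), RBCK1 (0.51) and CYLD (0.40) rose, so that MAP3K5 changed in opposite directions in the 2 knockouts. In HEL 19 of 32 changed, 59.4% beside 55.0% of all genes, 13 higher and 6 lower (median 0.11). MAP3K14 (0.96), TRADD (0.82), TRAF5 (0.75) and CASP8 (0.70) rose, and MAP3K7 (-0.88), CHUK (-0.55), TRAF6 (-0.36) and CASP10 (-0.33) fell. The caspase-8 gene and the TRAIL death receptors were thus higher in depleted HEL, whereas CASP10 was lower and TNFSF10 did not pass. A link between these changes was not tested.

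Of 6 relatives that carry other symbols, 3 were tested in K562. CD40LG, the ligand of CD40, had 3 and 11 counts in the control, 40, 60 and 41 after DOT1L loss and 7, 2 and 1 after ENL loss, with the DOT1L KO highest in CPM. Its log2 fold change there was 2.54 (edgeR adjusted p 0.000265, SE 0.433). In HEL it fell, from 23 and 29 counts to 7 and 14, by a log2 fold change of -1.28 (edgeR adjusted p 0.00273, SE 0.369). The responses of the lines differed by -3.80 (edgeR adjusted p 1.99e-05). CD40LG passed the filter on low counts only through the DOT1L KO libraries in K562 and only through the controls in HEL. Its call within each line therefore came through the group where it was high. CD70, the ligand of CD27, rose by 0.97 in the DOT1L KO (edgeR adjusted p 0.00958) and fell by 1.01 in the ENL KO (edgeR adjusted p 0.0349), while the receptor RELT passed in neither. Of the sheddases that release TNF superfamily members from the membrane, ADAM10 fell by 0.41 in the ENL KO and 0.50 in HEL, and ADAM17 by 0.19 after DOT1L loss and 0.18 after ENL loss.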

How the data were processed

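Messenger RNA libraries of K562 and HEL cells were analysed, 13 of the 74 samples; the other 61 were not analysed here. The authors deposited raw counts per gene, fragments for K562 and reads for HEL, per the file headers. The submitters' processing notes name HISAT2 2.1.0, featureCounts 1.6.1 and hg38, among other tools and builds; the labels describe strand-specific libraries, while use of strand in counting is not given in the sources used here. Counts were filtered with filterByExpr (minimum count 10, minimum total 15), TMM-scaled and compared with edgeR 4.0.16's quasi-likelihood test in R 4.3.3 on all genes (K562 groups in one fit, HEL in another, both in a joint fit), with Benjamini-Hochberg adjustment and a threshold of 0.05. Standard errors were derived from the F statistic. The fits were tested on simulated data. Alternatives were DESeq2 1.42.0, other scalings, no filter, a minimum absolute log2 fold change of 1, other sample sets, replicate blocks and leaving out each library; the block with the identical control columns numbered 3 was added after seeing the data. Members and lists were chosen with earlier results of these data known. Values were printed for members past the threshold in a comparison with a control, or at 1 CPM or more in a control group; of each list, up to 4 changes each way among genes of at least 5 CPM in a group were named. The 43 members matched RefSeq symbols. TNFAIP2 and ICAM1 in both lines, and the relatives under 5 CPM, were described after their values were seen.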

Additional observations from a re-analysis of the deposited data

Results flagged for a closer look

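The response of 11 members to DOT1L depletion differed between HEL and K562 by a test of the difference itself, given as the log2 fold change in HEL minus that in K562. It was 2.08 for TNFRSF10B, 1.72 for TNFRSF10A and 1.07 for TNFRSF1A. It was 1.67 for TNFRSF1B, 1.86 for TNFRSF12A and 0.44 for LTBR. For FAS it was 1.04 and for CD40 0.99, and both calls were lost when single libraries were left out. The other values are fitted ones that depend on groups with few or no counts, and they give no size. TNFRSF25 had 2.95 on 0 to 2 counts per DOT1L KO library and 3.81 without DOT1L KO 1. TNFRSF8 had 5.35 on 0 to 2 counts per HEL library and was no longer past the threshold without DOT1L KD 2, HEL control 1 or HEL control 2 (edgeR adjusted p 0.161, 0.0978 and 0.101). TNFRSF19 had -8.22 with no count in the K562 control. Line, means of depletion and way of counting cannot be told apart in these differences.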

How the results depend on the processing

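No called member changed direction under the alternatives run. A minimum absolute log2 fold change of 1 left 10 of 15 members in the DOT1L KO, 6 of 11 in the ENL KO, 11 of 17 between the knockouts and 3 of 7 in HEL, and of all genes 2265, 1573, 2744 and 738. For the difference between the lines it left 1950 genes. DESeq2 called 4 members and 4561 genes in HEL, against 7 and 6951 with edgeR; the cause was not tested. Leaving out each library in turn gave 13 to 14 members in the DOT1L KO, 10 to 11 in the ENL KO, 17 between the knockouts, 5 to 8 in HEL, 19 between the control lines and 10 to 11 for the difference in response. The block on replicate numbers called 15, 12, 17, 7, 20 and 12 members in the same order, and with the identical control columns numbered 3 it called 16, 12 and 17 in K562. Under both blocks TNFRSF12A passed in the DOT1L KO (-0.33, edgeR adjusted p 0.00507 and 0.00354) and in the ENL KO (0.38, edgeR adjusted p 0.00156 and 0.00107). Under the first block CD40 no longer passed in the DOT1L KO, nor TNFSF4 and TNFSF10 between the control lines, where TNFRSF11A passed. Same-numbered libraries deviated together with correlations across genes of 0.0531 to 0.221 in K562 and 0.000442 in HEL. In K562 the correlations between differently numbered libraries of different groups ran from -0.158 to 0.0881. The labels name no batch shared by number, so whether same-numbered libraries form pairs was not settled. Upper-quartile scaling moved the share of higher calls in HEL from 49.1% to 61.4% of all genes called. TNFRSF11A (-3.62 for the difference between the lines, edgeR adjusted p 0.0540) passed with DESeq2 (adjusted p 0.0413), with the block (edgeR adjusted p 0.0387) and without DOT1L KD 2, HEL control 1 or DOT1L KO 1, and NGFR (2.38) without K562 control 1 (edgeR adjusted p 0.0301, 0.0137, 0.0396 and 0.0357), both on 7 counts or fewer in a group. At this depth such members are measured with little precision.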
